A study of Mus musculus with 8 samples.

Results

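Interferon-stimulated genes (ISGs) are switched on when interferons signal to a cell, and 41 of them outside the *Gbp* family were followed by symbol through RNA-seq of 2 kinds of mouse hematopoietic progenitor. All 41 were listed in both expression tables, of 23284 gene symbols in each. The genes were grouped by role into factors of the interferon signal, sensors of foreign RNA and DNA, the ISG15 system, the Ifit, Oas and Mx families, immunity-related GTPases, antiviral effectors, the *Parp9*, *Parp14* and *Dtx3l* genes, and antigen processing. A gene was tested when it reached 1 CPM (reads scaled by the authors to the total of each library) in at least 1 of the 4 libraries of a table, which 33 of the 41 did in the first cell type and 39 in the second, 40 in either and 32 in both. *Usp18*, *Ifit1*, *Ifit3*, *Oasl1*, *Oasl2*, *Mx1*, *Mx2* and *Rsad2* did not reach it in IdHPCs, nor *Ifit3* and *Iigp1* in LMPPs.

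The study asked what PCGF1, a subunit of a variant Polycomb repressive complex, does in progenitors. IdHPCs are progenitor lines from bone marrow Lin- Sca-1+ c-Kit+ (LSK) cells, held in an immature state by Id3, and LMPPs are primary lymphoid-primed multipotent progenitors. Both were grown on TSt-4 stromal feeder cells with IL-7, SCF and Flt3-L, and the strain label is B6CBAF1/J throughout. Each cell type had 2 libraries labelled *Pcgf1* fl/fl (control) and 2 labelled *Pcgf1* -/- (*Pcgf1*-KO), 8 in all. *Pcgf1*-KO IdHPCs had received 4-OHT, which activates a tamoxifen-dependent Cre, for 4 days, and for control IdHPCs the RNA-seq methods give no treatment, while for another experiment ethanol is named as the control for such lines. For LMPPs the methods describe *Pcgf1* fl/fl cells as controls and ERT2-Cre:*Pcgf1* fl/fl cells as *Pcgf1*-KO, both in 4-OHT for 4 days, so that Cre was present only in the *Pcgf1*-KO cells. Neither the labels nor the methods used here state which promoter drives Cre in these cells or whether a line was 1 clone. The study calls its RNA-seq replicates biologically independent without saying which animals or cultures they came from, and p-values rest on the spread between these libraries.

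The deletion removes *Pcgf1* exons 2 to 7, and the reads on these exons checked the labels. Control IdHPCs had 193 and 173 such reads and *Pcgf1*-KO IdHPCs 15 and 15. In LMPPs the library labelled control 1 had 84, the library labelled *Pcgf1*-KO 1 had 76, and the libraries labelled control 2 and *Pcgf1*-KO 2 had 0 each. A library labelled control thus lacked these reads and a library labelled *Pcgf1*-KO held them, so that LMPP libraries are named below by their labels and no direction of the knockout was drawn from them. Having or lacking these reads coincided with the replicate number, 1 or 2, and these cannot be told apart. Distinct exon rows held 9618849 to 25302206 reads per library, and 3 reads, taken as the detection floor, were worth 0.086 to 0.227 CPM. All 8 progenitor markers checked (*Ptprc*, *Cd34*, *Kit*, *Flt3*, *Ly6a*, *Spn*, *Il7r* and *Ikzf1*) were above 1 CPM in at least 1 library of both cell types, while *Il7r* lay between 0.681 and 3.47 CPM in LMPPs against 47.0 to 83.8 CPM in IdHPCs.

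Type I interferons bind a receptor of IFNAR1 and IFNAR2, whose kinases JAK1 and TYK2 phosphorylate STAT2. STAT2 and IRF9 act together in a transcription factor that binds the interferon-stimulated response element (ISRE) in promoters of genes such as *Mx1*, *Isg15* and the *Oas* genes. Interferon gamma acts through JAK1 and JAK2 on the gamma-activated site (GAS) and, through IRF1, on the immunoproteasome, peptide transport and immunity-related GTPase genes. A low constitutive level of these transcripts is known in hematopoietic cells without infection.

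Promoter sequence was available for 31 of the 41 genes as 300-base RefSeq windows of GRCm38.p6, from 250 bases before the transcript start to 50 after it. No window was given for *Dhx58*, *Zbp1*, *Usp18*, *Oas2*, *Mx1*, *Mx2*, *Iigp1*, *Rtp4*, *Parp9* and *Parp14*. The ISRE core, spelled GAAANNGAAA and searched on both strands with overlapping matches counted, was found in 14 of 31 (45.2%), against 3.88% of the 15701 genes of the expression tables that had a window. The GAS spelling TTCNNNGAA, which reads the same on both strands and can share bases with the ISRE core, was found in 9 of 31 (29%) against 9.2%. Both are matches of letters and not measured binding sites. The 250 bases before the start are shown for 6 genes whose RNA is described below, with ISRE cores in capitals, 5′ to 3′ on the strand of the gene.

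Oas1a: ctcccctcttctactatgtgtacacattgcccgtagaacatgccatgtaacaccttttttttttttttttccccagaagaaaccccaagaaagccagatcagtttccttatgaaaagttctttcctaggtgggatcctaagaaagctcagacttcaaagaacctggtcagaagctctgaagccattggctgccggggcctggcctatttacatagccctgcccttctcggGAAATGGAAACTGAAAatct
Oas3: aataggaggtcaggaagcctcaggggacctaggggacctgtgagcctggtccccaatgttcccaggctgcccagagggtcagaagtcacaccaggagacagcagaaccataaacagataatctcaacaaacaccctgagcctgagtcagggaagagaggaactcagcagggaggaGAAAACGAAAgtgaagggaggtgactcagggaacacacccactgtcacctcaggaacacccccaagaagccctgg
Isg15: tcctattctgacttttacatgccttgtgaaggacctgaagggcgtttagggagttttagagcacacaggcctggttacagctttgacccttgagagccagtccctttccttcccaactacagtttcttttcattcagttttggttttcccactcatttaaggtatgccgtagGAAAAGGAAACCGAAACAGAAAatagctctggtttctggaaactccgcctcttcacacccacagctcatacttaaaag
Bst2: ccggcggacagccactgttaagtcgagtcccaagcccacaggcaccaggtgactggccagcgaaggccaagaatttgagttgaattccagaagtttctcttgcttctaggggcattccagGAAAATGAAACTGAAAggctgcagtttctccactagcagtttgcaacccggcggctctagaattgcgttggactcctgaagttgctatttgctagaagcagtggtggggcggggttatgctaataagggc
Irgm1: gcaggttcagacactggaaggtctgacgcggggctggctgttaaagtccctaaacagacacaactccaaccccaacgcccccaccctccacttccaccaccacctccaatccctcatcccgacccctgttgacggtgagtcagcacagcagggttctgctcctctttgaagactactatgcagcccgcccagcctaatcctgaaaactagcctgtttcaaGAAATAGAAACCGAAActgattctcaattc
Tap1: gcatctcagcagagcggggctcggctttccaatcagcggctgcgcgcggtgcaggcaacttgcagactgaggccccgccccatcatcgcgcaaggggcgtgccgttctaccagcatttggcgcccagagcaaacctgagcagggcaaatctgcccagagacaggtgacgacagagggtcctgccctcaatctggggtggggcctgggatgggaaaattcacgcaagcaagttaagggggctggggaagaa

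These stretches lie at chr5:120907526-120907775 (*Oas1a*, minus strand), chr5:120777660-120777909 (*Oas3*, minus strand), chr4:156200819-156201068 (*Isg15*, minus strand), chr8:71537473-71537722 (*Bst2*, minus strand), chr11:48871421-48871670 (*Irgm1*, minus strand) and chr17:34187306-34187555 (*Tap1*, plus strand). *Isg15* holds 3 overlapping cores, which begin 78, 72 and 66 bases before the start, and *Oas1a* holds 2, which begin 20 and 14 bases before it. The single core of *Oas3* begins 75 bases before the start. *Tap1* is shown as a gene of this group without an ISRE core in its window, which says only that these letters are not there.

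The baseline of these genes spanned a wide range in both cell types. Per kilobase of exon, the highest 3 were the same genes in both. In control IdHPCs they were *Bst2*, which tethers enveloped virions to the cell surface, at 131 CPM per kb, *Psmb8*, an immunoproteasome subunit, at 116, and *Tap1*, a subunit of the peptide transporter, at 108. In LMPPs the means per kb were 196 for *Psmb8*, 134 for *Bst2* and 80.7 for *Tap1*. At the other end in control IdHPCs stood *Mx1*, *Oasl1* and *Mx2*, at 0 to 0.037 CPM per kb, while *Oas3* was at 1.02. *Mx1*, a dynamin-like GTPase that blocks viral replication, had 0 reads in both controls and in *Pcgf1*-KO 2 and 0.246 CPM (7 reads) in *Pcgf1*-KO 1.

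Levels in CPM were set side by side without a test, since the 2 tables were normalized separately. Markers of other cells also differed. Stromal markers of the feeder cells summed to 4546 and 3842 CPM in control IdHPCs and to 67.2 to 102 CPM in LMPPs. Mature myeloid markers summed to 33.2 and 35.7 CPM in control IdHPCs and to 153 to 338 CPM in LMPPs. The part of such markers in the levels was not tested. All 4 LMPP libraries lay above both control IdHPC libraries for 15 of the 40 genes past the filter in either table, against 38.8% of all 13178 such genes, and below both for 2, *Psmb9* and *Tap1*, against 27%. The remaining 23 overlapped. A gap of at least 2-fold upward was found for 7 of the 40 (background 11.2%) and downward for 0 (background 9.27%). The filter fixed part of these counts. *Isg15*, *Usp18*, *Ifi44*, *Ifit1*, *Oas1a*, *Oasl1*, *Oasl2*, *Mx1*, *Mx2* and *Rsad2* reached 1 CPM in LMPPs but in no control IdHPC library, so that they could not lie below, and all 7 genes with the 2-fold gap were among these 10. Of all 1128 genes of this kind, 86% lay above and 70.5% by 2-fold or more, so that 7 of 10 was near the background. Of the 29 genes that reached 1 CPM in control IdHPCs and in LMPPs, 8 were above (background 37.6%) and 2 below (background 24%), with 0 by 2-fold or more in either direction (background 6.19% above and 4.36% below). The median distance on log2(mean CPM + 1), LMPP minus control IdHPC, was 0.40 for these 29 and 0.12 for all genes that did so.

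The 4 genes with the largest distances upward, all among the 10 that reached the filter in LMPPs but not in control IdHPCs, were antiviral effectors and a regulator. *Mx1* was at 0.863 to 13.8 CPM in LMPPs against 0 reads in control IdHPCs. *Oas1a*, an enzyme that makes the 2-5A activator of RNase L, was at 2.42 to 16.5 CPM against 0.214 and 0.315. *Oasl2*, a relative of the Oas enzymes, was at 2.20 to 12.9 CPM against 0.337 and 0.516. *Usp18*, the protease that removes ISG15 from proteins and dampens IFNAR2, was at 2.73 to 9.44 CPM against 0.857 and 0.630. For these genes the lowest LMPP library was above both control IdHPCs, and the LMPP libraries themselves spread widely.

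The 4 genes with the largest distances downward differed far less. *Psmb9*, an immunoproteasome subunit, was at 94.3 to 103 CPM in LMPPs against 150 and 165 CPM in control IdHPCs. *Tap1* was at 221 to 259 CPM against 286 and 350. *Rtp4* and *Ddx58*, which encodes the RNA sensor RIG-I, overlapped between the cell types, at 1.21 to 4.53 CPM against 2.97 and 3.64 and at 17.3 to 19.2 CPM against 17.8 and 26.6. In all, 12 genes were below 1 CPM in both control IdHPCs, 8 in all 4 IdHPC libraries and 2 in all 4 LMPP libraries.

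**Figure D1:**
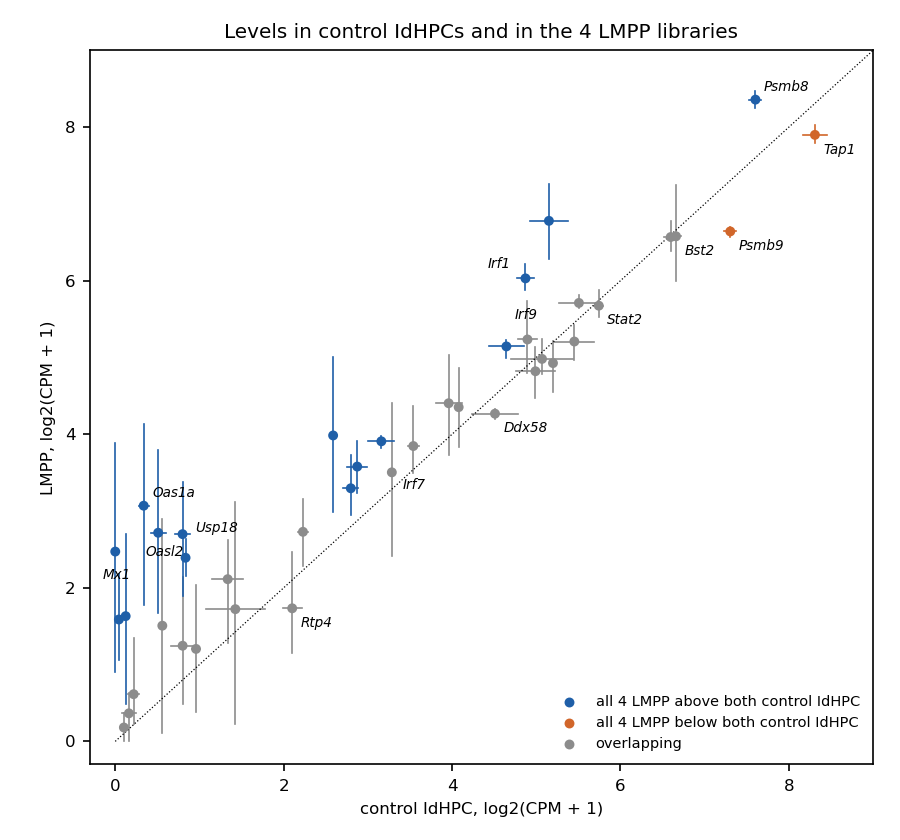
Level of each of the 41 genes in control IdHPCs (x axis, 2 libraries) and in LMPPs (y axis, 4 libraries), both as log2(CPM + 1). Points are means of the log values, bars run from the lowest to the highest library, the dotted line marks equal values and the named genes are those of highest level or largest distance and the signal factors; *Mx1*, *Oas1a*, *Oasl2* and *Usp18* lie far above the line, and *Psmb9* and *Tap1* below it.

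In *Pcgf1*-KO IdHPCs the genes of this group were more often lower than higher relative to control, and none passed the test. Of the 33 genes tested, 0 were called higher (background 33 of 12273 genes, 0.269%) and 0 lower (background 32 genes, 0.261%) by limma on log2(CPM + 1) with Benjamini-Hochberg adjustment over all genes. At an unadjusted p under 0.05, 8 were lower (*Oas3*, *Cmpk2*, *Samd9l*, *Dhx58*, *Tap1*, *Igtp*, *Psmb9* and *Trim25*, background 5.33%) and 0 higher (background 9.17%). The log2 fold change was below 0 for 23 and above 0 for 10, against 49.5% and 50.5% of all genes, and the median was -0.33 against 0.0056 for all genes. Both *Pcgf1*-KO libraries lay below both controls for 18 of 33 (background 21.3%) and above both for 5 (background 25.6%). *Isg15*, *Ifi44*, *Oas1a* and *Iigp1* reached the filter only through *Pcgf1*-KO libraries, so that they could not lie below, and of the other 29 genes 18 were below (background 21.6%) and 2 above (background 24.4%). Among the other tools, edgeR's exactTest called 1 lower (*Oas3*) and 1 higher (*Iigp1*), DESeq2 called 2 lower (*Cmpk2* and *Oas3*), and edgeR's quasi-likelihood test called 0. With the replicate number as a block, by which the labels do not pair libraries, limma called 2 lower (*Cmpk2* and *Oas3*).

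The size of the median rested in part on 1 control. Without control 2 it was -0.07, and without each of the other 3 libraries it lay between -0.37 and -0.25. The 4 pairs of a *Pcgf1*-KO with a control library gave medians of -0.02, -0.26, -0.23 and -0.40. With a library left out neither count can fall, so that each is read only against the background taken the same way. With control 2 left out, 18 of 33 were below (background 30.4%) and 9 above (background 35.3%), and with *Pcgf1*-KO 2 left out 19 were below (background 33.5%) and 10 above (background 39.8%). *Pcgf1*-KO 2 had the fewest reads and 33.6% of the reads of well-covered genes on the first and last listed exon rows, against 29.5% to 30.3% in the other 3.

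*Oas3*, an Oas enzyme that senses double-stranded RNA, had the largest difference on log2(CPM + 1). It had 4.87 and 5.16 CPM in control cells and 1.40 and 1.32 CPM in *Pcgf1*-KO, with no overlap. The difference was -1.35 ± 0.29 on the log2 scale (SE), and the limma adjusted p of 0.0704 was the smallest of the group. The order of sizes depends on the pseudocount: with 0.1 the value was -1.81 for *Oas3* and 2.08 for *Iigp1*, a gene of few reads.

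*Cmpk2*, a mitochondrial nucleotide kinase induced by interferon, had 11.1 and 10.1 CPM in control cells and 5.76 and 3.95 CPM in *Pcgf1*-KO, a difference of -1.01 ± 0.29 on the log2 scale (SE, limma adjusted p = 0.131). Its neighbor on the chromosome, *Rsad2*, which encodes the antiviral enzyme viperin, did not pass the filter and had 25 and 28 reads in the controls against 4 and 2 in *Pcgf1*-KO. *Samd9l*, an inhibitor of virus replication and cell growth, had 25.0 and 42.4 CPM against 15.7 and 19.0 (-0.88 ± 0.29 on the log2 scale, SE, limma adjusted p = 0.197, and -0.51 without control 2). *Dhx58*, which encodes the RIG-I relative LGP2, had 15.6 and 16.2 CPM against 8.36 and 9.18 (-0.79 ± 0.26 on the log2 scale, SE, limma adjusted p = 0.186). *Trim25*, a ubiquitin ligase of the RIG-I pathway, had 90.7 and 101 CPM against 76.3 and 58.4 (-0.52 ± 0.23 on the log2 scale, SE, limma adjusted p = 0.333). In each of these the *Pcgf1*-KO libraries were both below both controls.

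The 3 antigen processing genes were each lower in both *Pcgf1*-KO libraries. *Tap1* had 286 and 350 CPM in control cells and 150 and 238 CPM in *Pcgf1*-KO, a difference of -0.74 ± 0.26 on the log2 scale (SE, limma adjusted p = 0.216), which was -0.41 without *Pcgf1*-KO 1. *Psmb9* had 150 and 165 CPM against 81.6 and 125, and *Psmb8* 203 and 184 CPM against 118 and 159. Their log2 fold changes were -0.63 and -0.50. *Psmb9* and *Tap1* overlap by 212 exonic bases on opposite strands in the NCBIM37 annotation, chr17:34318932-34324709 and chr17:34324498-34334170, and the library kit named does not mark strand, so that reads from this overlap cannot be told apart. The same holds for *Parp9* and *Dtx3l* over 367 bases.

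Among immunity-related GTPases and signal factors none passed the test. *Igtp*, which encodes the GTPase IRGM3 that acts on vacuoles of pathogens, had 6.95 and 5.76 CPM in control cells and 4.63 and 2.63 CPM in *Pcgf1*-KO (-0.70 ± 0.31 on the log2 scale, SE, limma adjusted p = 0.343, and -0.38 without *Pcgf1*-KO 2). *Irgm1*, another of these GTPases, overlapped between the groups, at 26.1 and 36.3 CPM against 32.6 and 28.7. Of the 4 signal factors *Stat2*, *Irf7* and *Irf9* were lower in both *Pcgf1*-KO libraries and *Irf1* overlapped, with log2 fold changes of -0.36, -0.33, -0.39 and -0.04 and adjusted p from limma of 0.488 or more.

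Of the genes higher in *Pcgf1*-KO, most were at a low level. *Iigp1*, an immunity-related GTPase, had 0.184 and 0.0573 CPM (6 and 2 reads) in the controls and 1.02 and 0.612 CPM (29 and 13 reads) in *Pcgf1*-KO. *Isg15*, the ubiquitin-like modifier, had 0.582 and 0.917 CPM against 1.83 and 1.60, and *Oas1a* 0.214 and 0.315 CPM against 1.16 and 0.659. *Bst2* was the most abundant of these, at 104 and 96.1 CPM against 111 and 154. None of the 4 overlapped, and their log2 fold changes were 0.69, 0.64, 0.58 and 0.38 with adjusted p between 0.347 and 0.480 from limma. *Iigp1*, *Isg15* and *Oas1a* reached the filter only through *Pcgf1*-KO libraries and could not lie below. Of all 446 genes that did so, 66.1% lay above both controls. The pseudocount of 1 shrinks the values of the 3 low genes: with edgeR's exactTest on reads the log2 fold changes were 2.73 for *Iigp1*, which it called, 1.17 for *Isg15* and 1.76 for *Oas1a*. The value of *Bst2* on log2(CPM + 1) was 0.15 without *Pcgf1*-KO 2 and 0.62 without *Pcgf1*-KO 1. *Ifi35*, the fifth gene with both *Pcgf1*-KO libraries above both controls, had a log2 fold change of 0.18 (limma adjusted p = 0.781). *Ifi44* and *Lgals3bp*, the next after *Bst2* by size, overlapped between the groups, with log2 fold changes of 0.23 (0.77 without *Pcgf1*-KO 2) and 0.19 (-0.04 without control 2). *Oas1a*, *Iigp1* and the *Ifit* genes have close relatives in the genome, and reads shared with a near-identical copy make their levels uncertain.

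**Figure D2:**
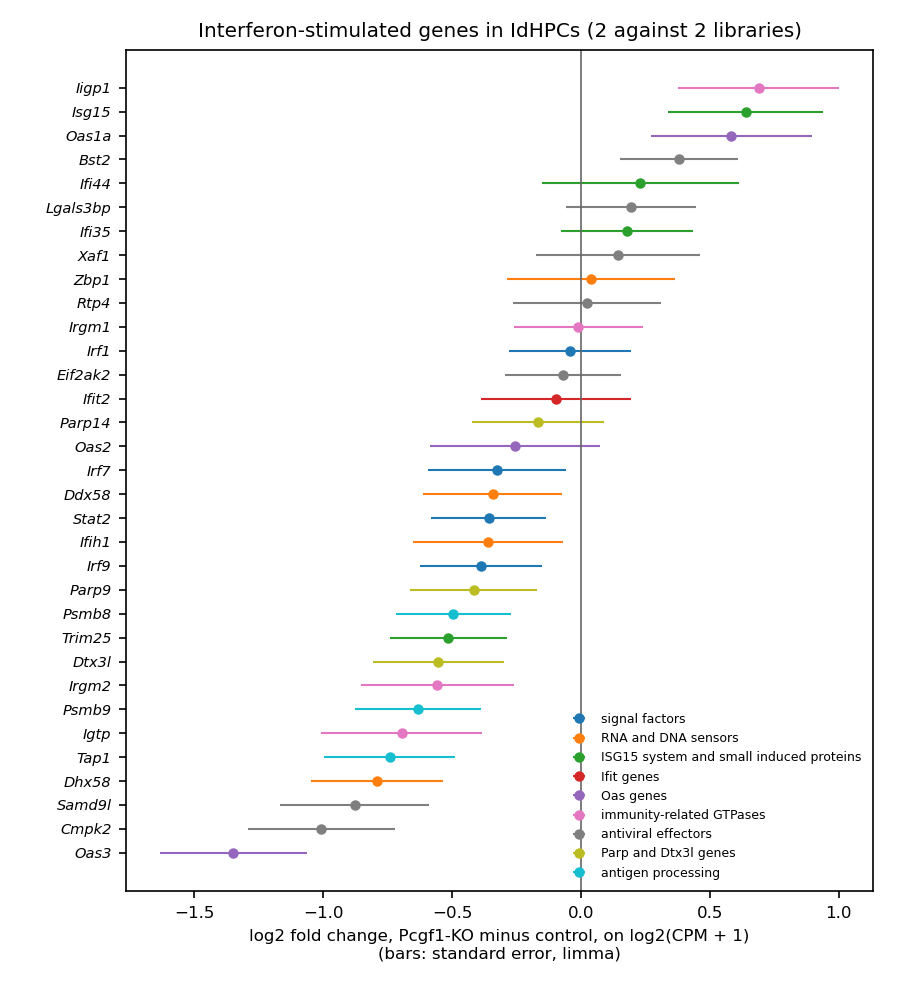
Log2 fold change on log2(CPM + 1), *Pcgf1*-KO minus control, of the 33 genes tested in IdHPCs (2 libraries against 2), with limma standard errors as bars and colors for the role groups. Of the 33, 23 lie below 0, *Oas3* farthest at -1.35, and *Iigp1* at 0.69 is the highest.

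Markers of other cells differed between the same libraries. The 20 stromal markers, which report the feeder cells, summed to 4546 and 3842 CPM in control IdHPCs and to 9051 and 6841 CPM in *Pcgf1*-KO. Of 18 tested, 17 were higher in both *Pcgf1*-KO libraries (background 25.6%), 2 of them called by limma (background 0.269%). *Lum* and *Dcn* had 0 reads in every library. The 7 markers of plasmacytoid dendritic cells, the main producers of type I interferon, summed to 45.6 and 47.9 CPM in control cells and 29.5 and 38.1 CPM in *Pcgf1*-KO. Of 5 tested, *Siglech* and *Cox6a2* were lower in both *Pcgf1*-KO libraries and *Ccr9* higher, with log2 fold changes of -1.44, -1.79 and 1.59, none called. Mature myeloid markers other than *Fcgr3*, which made up most of the list's sum, added up to 7.96 and 5.22 CPM against 7.94 and 6.87, and *Fcgr3* itself had 25.2 and 30.5 CPM against 30.9 and 41.7. Within that near-even sum *Lyz2* was higher in both *Pcgf1*-KO libraries, at 1.44 and 0.888 CPM against 4.35 and 2.78, while *Itgam* (2.54 and 0.831 CPM against 0.562 and 0.329) and *Csf1r* (under 1 CPM throughout and not tested) were lower in both. Neither *Lyz2* nor *Itgam* was called. The 8 B cell markers summed to 58.4 and 129 CPM in control cells and 62.6 and 147 CPM in *Pcgf1*-KO. Of 6 tested, 2 were lower in both *Pcgf1*-KO libraries and 0 higher, none called. These were *Pax5*, at 6.31 and 3.70 CPM against 2.42 and 0.423, and *Blnk*, which reached 1 CPM only in control 2. Of the progenitor markers, *Ly6a*, which encodes Sca-1 and is itself inducible by interferon, had 44.3 and 34.4 CPM in control cells and 76.7 and 67.7 CPM in *Pcgf1*-KO, *Cd34* was also higher in both *Pcgf1*-KO libraries and *Ptprc* lower in both. Their log2 fold changes were 0.87, 0.97 and -0.64 with adjusted p of 0.114, 0.0856 and 0.248 from limma. *Spn*, *Il7r* and *Ikzf1* were also lower in both, with log2 fold changes of -0.05, -0.47 and -0.50. Of the 8 markers, 2 were thus higher in both (background 25.6%) and 4 lower (background 21.3%), none called. Fewer cells of a type and less RNA per cell cannot be told apart in these bulk libraries, and the part of these markers in the differences of the interferon-stimulated genes was not tested. The 41 genes together summed to 1270 and 1402 CPM in control cells and 936 and 1098 CPM in *Pcgf1*-KO. The 3 antigen processing genes made up most of that difference, with 639 and 699 CPM against 349 and 521, and the other 38 genes summed to 632 and 702 CPM against 586 and 576.

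In LMPPs no difference between the labelled groups was detectable for these genes, while replicates of 1 label were far apart. By label, limma called 0 of the 39 genes tested in either direction and 0 of 12153 genes (background 0%), and for the 39 neither test of edgeR (exactTest or quasi-likelihood) nor DESeq2 called any. At an unadjusted p under 0.05 limma found 0 of the 39 and 2 genes of all (0.0165%). The log2 fold change was below 0 for 17 and above 0 for 22, against 50.5% and 49.5% of all genes. Its median was 0.0075, and the single values ran from -0.35 for *Ifit1* to 0.72 for *Oas2*. Only *Ifih1*, the RNA sensor MDA5, had both libraries labelled *Pcgf1*-KO above both labelled control, at 14.3 and 14.8 CPM against 13.2 and 13.9, where 5.92% of all genes did, and 0 had both below (background 6.3%). The standard errors of *Oas2* (0.93) and *Oas1a* (0.84) on the log2 scale show the spread within the labels. The medians over the 39 genes for the 4 pairs of libraries were 0.01 for *Pcgf1*-KO 1 against control 1, 0.86 for *Pcgf1*-KO 1 against control 2, -0.82 for *Pcgf1*-KO 2 against control 1 and -0.01 for *Pcgf1*-KO 2 against control 2, as labelled.

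The spread had the order of the reads on *Pcgf1* exons 2 to 7. This order was seen in the values and is given as a description with no test, and libraries were not regrouped by it. Both libraries without such reads (labelled control 2 and *Pcgf1*-KO 2) lay below both libraries with them (labelled control 1 and *Pcgf1*-KO 1) for 31 of 39 genes, against 29.9% of all 12153 genes. They lay above for 3, *Ddx58*, *Samd9l* and *Tap1*, against 26.7%, and *Ifih1*, *Rsad2*, *Dtx3l*, *Psmb8* and *Psmb9* overlapped. With a gap of at least 2-fold between the nearest libraries, 15 of 39 were below (background 1.83%) and 0 above (background 2.89%). *Zbp1*, *Isg15*, *Ifi44*, *Ifit1* and *Mx2* reached the filter only through the libraries with such reads, so that they could not lie above. All 5 lay below and 4 by 2-fold or more, where 76.1% and 35.2% of all 264 genes of this kind did. Of the other 34 genes, 26 were below (background 27.7%), 11 of them by 2-fold or more (background 1.14%), and 3 above (background 27%).

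The 3 widest gaps were in *Ifi44*, *Mx1* and *Mx2*, and these and the Oas genes were chosen for description after their values were seen. *Ifi44* and *Mx2* were among the genes whose side the filter fixed in part. *Ifi44*, which encodes an interferon-induced cytoplasmic protein, had 4.57 CPM in the library labelled control 1 and 6.45 CPM in that labelled *Pcgf1*-KO 1, but 0.460 CPM in that labelled control 2 and 0.0757 CPM (1 read) in that labelled *Pcgf1*-KO 2. *Mx1* had 13.8 and 13.1 CPM in the libraries numbered 1 (labelled control, then *Pcgf1*-KO) and 0.863 and 1.44 CPM in those numbered 2. *Mx2* had 5.01 and 5.49 CPM and 0.403 and 0.681 CPM in the same order. The nearest libraries on either side were apart by 9.93-fold, 9.11-fold and 7.36-fold, while libraries on the same side differed far less, except the 8 reads against 1 of *Ifi44*.

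All 5 Oas genes had a gap of 2-fold or more. *Oas1a* had 16.5 and 14.6 CPM in the libraries numbered 1 and 2.42 and 4.32 CPM in those numbered 2, again with the library labelled control first. *Oas2* had 4.64 and 7.69 CPM against 0.173 and 1.06, and *Oas3* had 26.0 and 31.0 CPM against 8.11 and 6.96. *Oasl2* and *Oasl1*, the Oas-like genes, had gaps of 4.49-fold and 2.66-fold. The 5 genes summed to 63.6 and 67.5 CPM in the libraries numbered 1 and to 14.3 and 15.7 CPM in those numbered 2, while the 4 libraries of IdHPCs held 3.72 to 8.42 CPM.

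Sensors, regulators and signal factors ranged from wide to small gaps. *Zbp1*, a sensor of Z-form nucleic acid, had 2.36 and 3.09 CPM in the libraries numbered 1 and 0.575 and 0.303 CPM in those numbered 2, a gap of 4.10-fold. *Isg15* had 3.39 and 2.20 CPM against 0.403 and 0.606 (gap 3.63-fold), and *Usp18* 9.44 and 8.10 CPM against 4.03 and 2.73. *Zbp1* and *Isg15* reached the filter only through the libraries numbered 1 and could not lie above. *Irf7*, the factor that amplifies type I interferon output, had 18.8 and 20.3 CPM against 6.39 and 4.32 (gap 2.94-fold). *Irf9*, the DNA-binding partner of STAT2, had 47.9 and 52.1 CPM against 26.9 and 26.7, while *Stat2* (gap 1.11-fold) and *Irf1* (gap 1.19-fold) were close to even. *Bst2* had 151 and 131 CPM against 62.8 and 64.0. *Ifi35* and *Rtp4* complete the 15 genes with a gap of 2-fold or more, at 2.09-fold and 2.15-fold. The remaining tested genes that shared the order had gaps between 1.05-fold (*Parp14*) and 1.94-fold (*Dhx58*).

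The genes that did not share this order were the RNA sensors *Ifih1* and *Ddx58*, *Rsad2*, *Samd9l*, *Dtx3l* and the 3 antigen processing genes. *Tap1* had 222 and 221 CPM in the libraries numbered 1 and 259 and 252 CPM in those numbered 2. *Psmb8* had 351 and 306 CPM against 302 and 353. The sum over the 41 genes, to which *Psmb8* and *Tap1* contribute most, was 1740 and 1706 CPM in the libraries numbered 1 and 1349 and 1375 CPM in those numbered 2. Genes with and without an ISRE core were found on both sides of a 2-fold gap. Of 13 tested genes with a core in the window, 10 were below and 4 by 2-fold or more. Of 17 with a window but no core, these were 12 and 5 (background 29.9% and 1.83%). *Zbp1*, *Usp18*, *Oas2*, *Mx1*, *Mx2* and *Rtp4*, which had a 2-fold gap, had no window and are in neither count. *Isg15* and *Ifit1*, with a core, and *Ifi44*, without, reached the filter only through the libraries numbered 1 and could not lie above. Whether a core goes with the gap was not tested.

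**Figure D3:**
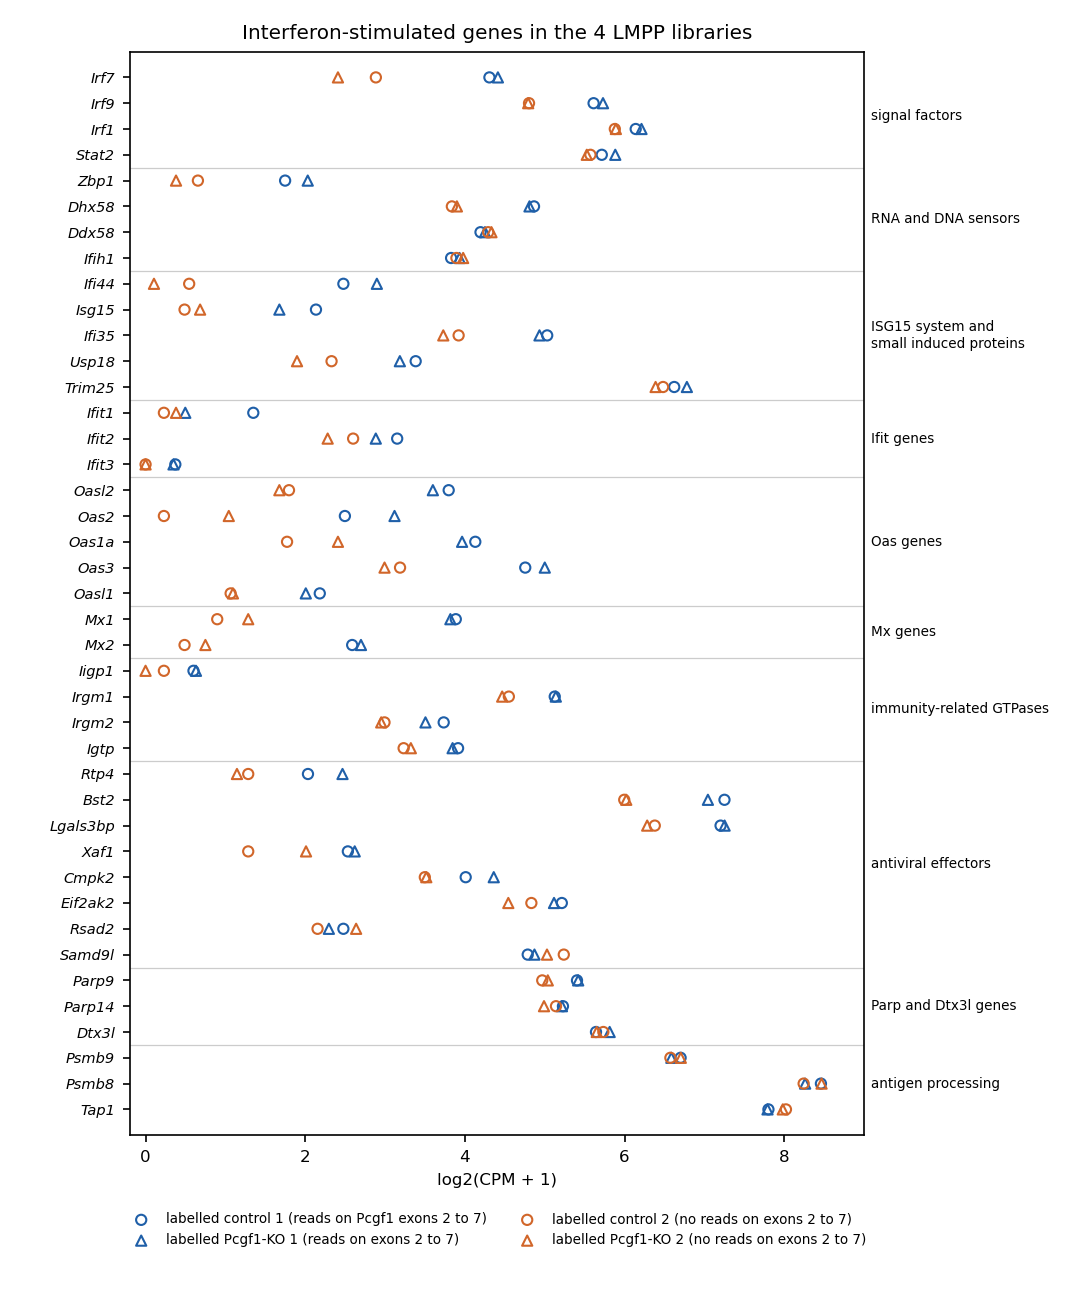
Log2(CPM + 1) of the 41 genes in the 4 LMPP libraries, by role group, with circles for libraries labelled control, triangles for those labelled *Pcgf1*-KO, blue for libraries with reads on *Pcgf1* exons 2 to 7 and orange for those without. Symbols pair by color and not by shape for the Mx and Oas genes and for *Ifi44*, *Irf7* and *Isg15*, and all 4 lie close together for *Psmb9* and *Ddx58*.

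The same 2 libraries stood apart for markers of mature myeloid cells. These markers summed to 338 and 337 CPM in the libraries numbered 1 and to 153 and 157 CPM in those numbered 2. Of 8 tested, 6 were below in the latter (background 29.9%), 4 by 2-fold or more (background 1.83%). *S100a9*, 1 of the 6, reached 1 CPM only in the library labelled control 1, so that it could not lie above. *Lyz2*, lysozyme of macrophages and granulocytes, had 93.0 and 77.7 CPM against 37.1 and 39.6, and *Csf1r*, the receptor for M-CSF, had 114 and 118 CPM against 52.9 and 49.2. Markers of plasmacytoid dendritic cells summed to 40.9 and 41.7 CPM against 28.4 and 27.3. The T and NK cell markers, nearly all of it *Nkg7*, summed to 35.5 and 31.2 CPM against 11.3 and 13.8, and the B cell gene *Blnk* had 7.96 and 6.73 CPM against 1.78 and 2.20, while *Ms4a1*, *Cd3e* and *Ncr1* were under 1 CPM in every library. *Ly6a*, which encodes Sca-1, had 14.7 and 14.7 CPM against 4.14 and 2.80, and *Kit* had the reverse order, with 228 and 258 CPM against 384 and 352. Stromal markers summed to 67.2 to 102 CPM in LMPPs, nearly all of it *Pdgfrb* (35.1 to 56.8 CPM, above control IdHPCs) and *Thbs1* (27.4 to 39.7 CPM), and the other 18 to 4.09 to 5.97 CPM. The part of these markers in the order of the interferon-stimulated genes was not tested.

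**Figure D4:**
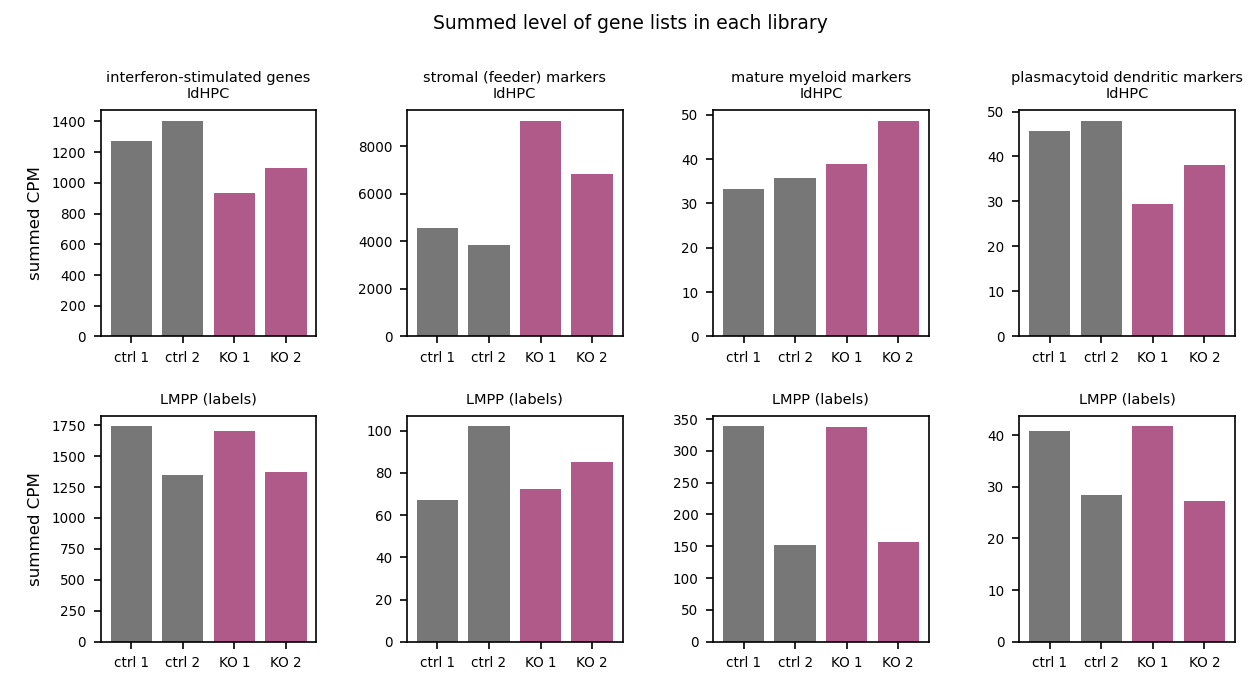
Summed CPM of the 41 interferon-stimulated genes and of 3 lists of cell type markers in each library of IdHPCs (top) and LMPPs (bottom), with gray bars for libraries labelled control and purple bars for *Pcgf1*-KO, and a separate axis from 0 in each panel. In IdHPCs the sum of the genes is lower and that of stromal markers higher in both *Pcgf1*-KO libraries, and in LMPPs the libraries numbered 1 and 2 differ for the genes and the myeloid markers whatever their label.

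Set side by side, the direction per gene was mixed. Of the 32 genes tested in both cell types, 11 were lower in both *Pcgf1*-KO IdHPC libraries and also lower in both LMPP libraries without reads on *Pcgf1* exons 2 to 7, where 5.97% of the 11248 genes tested in both cell types were. Since 18 of the 32 were lower in IdHPCs and 25 in LMPPs, each counted without regard to the other cell type, this count does not show that the directions go together. They were *Stat2*, *Irf7*, *Irf9*, *Dhx58*, *Trim25*, *Oas3*, *Irgm2*, *Igtp*, *Cmpk2*, *Eif2ak2* and *Parp9*. For 4 genes, *Isg15*, *Ifi35*, *Oas1a* and *Bst2*, the *Pcgf1*-KO IdHPC libraries were higher while those LMPP libraries were lower (5.97% of all genes). *Isg15* and *Oas1a* reached the IdHPC filter only through *Pcgf1*-KO libraries, and *Isg15* the LMPP filter only through the libraries with reads on those exons, so that only *Ifi35* and *Bst2* remain among the 28 genes past it on both sides in both cell types (background 5.71%). *Ddx58*, *Samd9l* and *Tap1* had the opposite pattern, lower in *Pcgf1*-KO IdHPCs and higher in those LMPP libraries (5.42% of all genes). By label, the log2 fold changes of LMPPs and IdHPCs had the same sign for 12 of the 32. No share of all genes was set beside this count, and no direction of the knockout is drawn from it.

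The interferon ligands themselves were hardly seen. Of 21 ligand genes listed, 19 were in the tables, of which 18 had 0 reads in all 4 IdHPC libraries and 14 in all 4 LMPP libraries, and none passed the filter. *Ifnb1* had 0 reads in every library, where 3 reads would have been at most 0.227 CPM. Poly(A) RNA of the cells does not report interferon made by cells that were not sequenced.

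The receptors of interferon alpha, beta and gamma and their kinases were expressed in every library. *Ifnar1* had 63.7 to 86.6 CPM over the 8 libraries and *Ifnar2* 63.3 to 161 CPM, while *Il28ra*, the receptor chain for interferon lambda, had 1 read in 1 control IdHPC library and 0 elsewhere. Of 28 further pathway genes tested in each cell type, limma called 0 in either. In IdHPCs 3 were lower (background 5.33%) and 1 higher (background 9.17%) at an unadjusted p under 0.05. The lower ones were *Irf8*, a factor of myeloid and dendritic cells, at 38.1 and 47.1 CPM in control cells and 20.6 and 22.6 CPM in *Pcgf1*-KO (-0.94 ± 0.24 on the log2 scale, SE, limma adjusted p = 0.104), *Tlr9*, a DNA sensor (log2 fold change -1.10), and *Stat3* (log2 fold change -0.66). The higher one was *Ube2l6*, the conjugating enzyme for ISG15 (log2 fold change 0.68).

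In LMPPs 17 of the 28 were lower in both libraries without reads on *Pcgf1* exons 2 to 7 (background 29.9%) and 5 higher (background 26.7%), and 3 were lower by 2-fold or more (background 1.83%). *Irf8* had 545 and 557 CPM in the libraries numbered 1 and 355 and 338 CPM in those numbered 2. The 5 receptor genes tested were all lower in the libraries numbered 2, with gaps of 1.58-fold or less. *Jak1*, which serves both receptors, was higher in them, at 261 and 233 CPM against 187 and 205.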

How the data were processed

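Poly(A) RNA of 2 control and 2 *Pcgf1*-KO libraries each of IdHPCs and LMPPs was measured. The authors deposited CPM (reads relative to the library total) per exon row, made with edgeR on mm9. The methods name HISAT2 and the submitters' processing notes TopHat2 version 2.0.13, and the counting of reads that span exons is not given in the sources used here. CPM are therefore relative to reads over all 284716 listed rows, in which exons shared by transcripts repeat: of 220394 rows with reads, 58624 (26.6%) equalled the row before in all libraries and the symbol. These were dropped and rows were summed per symbol. A symbol's read that spans exons may count more than once. All values (100%, tolerance 0.001 reads) were whole multiples of 1 read, worth 0.0287 to 0.0757 CPM, so that depth was recovered. Intervals and floors cover counting error only.

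Groups and replicate numbers came from the labels. The planned design had expected rows per gene. Each table was tested alone with limma (version 3.58.1, R 4.3.3) on log2(CPM + 1), which understates the change of low genes, with a mean-variance trend, 2 libraries against 2, for genes with 1 CPM or more in at least 1 library, 2-sided and with Benjamini-Hochberg adjustment at 0.05 over all genes tested. Count tests on recovered reads (edgeR version 4.0.16 and DESeq2 version 1.42.0) were alternatives. On simulated counts (dispersion 0.02) limma recovered all 200 genes that had been shifted by 2 on the log2 scale, with 7 unchanged genes called of 12009 genes for IdHPCs and 10 of 11975 for LMPPs. The shifted genes were drawn only from those above a minimum mean level. The shift also exceeded every difference of the interferon-stimulated genes tested on log2(CPM + 1). This recovery therefore does not show the power for those genes. Exon lengths and overlaps came from the NCBIM37 annotation (GENCODE vM1) and promoter windows from RefSeq (GRCm38.p6).

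The genes, lists and rules were chosen with earlier results of these data known. Genes described singly were the signal factors, the 6 largest differences in each direction in IdHPCs, the 3 in each direction in LMPPs by label, the 3 highest per kb, and the 4 largest distances between cell types in each direction. Members described for the order of LMPP libraries, and others, were chosen after their values were seen. Alternatives were a pseudocount of 0.1, a filter in 2 libraries or none, median-ratio scaling, no trend, the replicate number as a block, each library left out, all rows summed, other spellings of the motifs, and, added after the data were seen, sums without the first and last rows, the order of IdHPC libraries with each library left out, sums without the genes that carry them, and counts of order and of levels over the genes that reached the filter on both sides.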

Additional observations from a re-analysis of the deposited data

Results flagged for a closer look

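*Ifih1*, which encodes the RNA sensor MDA5, had its libraries in opposite order in the 2 cell types, as labelled. The labels of the LMPP libraries go against their reads on *Pcgf1* exons 2 to 7, so that no direction of the knockout is drawn from this, and the LMPP difference was smaller than its standard error. In IdHPCs both *Pcgf1*-KO libraries (7.02 and 5.03 CPM) lay below both controls (7.04 and 8.94 CPM). In LMPPs both libraries labelled *Pcgf1*-KO lay above both labelled control, with a log2 fold change of 0.095 (limma standard error 0.17). The difference between the cell types was not tested, since the tables were normalized separately. In IdHPCs *Pcgf1*-KO 1 and control 1 were close to equal.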

How the results depend on the processing

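The 33 genes called higher and 32 called lower in IdHPCs became 0 and 0 without a filter, 385 and 154 with edgeR's exactTest, 341 and 153 with DESeq2, and 0 and 3 without the first and last rows. Those called higher were 59 with median-ratio scaling, 77 with edgeR's quasi-likelihood test and TMM and 19 with all listed rows. Leaving out 1 library gave 0 to 234 higher and 14 to 591 lower, the lowest counts without control 2 and the highest without *Pcgf1*-KO 1. Of the interferon-stimulated genes, 0 called in either direction became 2 lower with DESeq2, 1 higher and 1 lower with exactTest, and 0 to 2 lower with 1 library left out (*Cmpk2* and *Oas3* without *Pcgf1*-KO 1, *Tap1* without *Pcgf1*-KO 2). Their median of -0.33 was -0.13 without a filter and -0.37 to -0.067 with 1 library left out. The causes were not tested. With the replicate number as a block, 484 genes were higher and 185 lower in IdHPCs, with 2 interferon-stimulated genes among the lower ones (*Cmpk2* and *Oas3*), and 3 genes were higher in LMPPs. Same-numbered libraries deviated together (correlation 0.15 in IdHPCs and 0.71 in LMPPs), but with 2 pairs the numbers do not pair them by the labels. In LMPPs by label the median ran from -0.41 to 0.37 with 1 library left out, and single genes changed sign then: *Irf1* ran from -0.12 to 0.20, *Irf7* from -1.19 to 0.82, *Irf9* from -0.42 to 0.52, *Stat2* from -0.12 to 0.24, *Oas1a* from -0.94 to 1.42, *Oas2* from -0.42 to 1.85, *Xaf1* from -0.22 to 1.03, *Usp18* from -0.96 to 0.33 and *Ifit2* from -0.59 to 0.0081. In IdHPCs *Irf1* ran from -0.14 to 0.053 and *Lgals3bp* from -0.036 to 0.42, both with a change of sign. *Bst2*, *Ifi44*, *Igtp*, *Samd9l* and *Tap1* kept their sign but moved by over 1.5 times. With the stricter spellings, GAAANNGAAA followed by CT was found in 19.4% of the windows of this group against 0.35% of the genes of the tables, and TTCCNGGAA in 9.68% against 1.42%. The counts for the order of LMPP libraries moved by less than 1.5 times under the alternatives run. Of the counts of levels, genes with LMPPs above control IdHPCs went from 15 of 40 to 8 of 29, and those above by 2-fold or more from 7 to 0, over the genes that reached the filter on both sides. Sums without the row at the 3′ end of each gene were not run, as the tables give no position or strand. Genes below 1 CPM rest on a few reads, which limits their differences.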
